A study of Mus musculus with 14 samples.

Results

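The regions described here are 2617 HDAC3 peaks of mouse quadriceps muscle that were listed late in the light phase only and that stood alone. They were chosen by the authors' deposited peak lists: a peak of the list made at zeitgeber time 10 (ZT10) was taken when it shared no base with any peak of the ZT22 list and had no other ZT10 peak centre within 10 kb on its chromosome. Zeitgeber time counts hours from lights on, so that ZT22 falls late in the dark phase. The ZT10 list holds 4093 peaks, of which 710 overlapped the ZT22 list, 766 were absent from it but lay in close groups, and 2617 (63.9%) met both conditions. The ZT22 list holds 1459 peaks, 749 of them without an overlap at ZT10.

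Each list comes from 1 chromatin immunoprecipitation library of quadriceps from male C57BL/6 mice aged 4 months, wild type for HDAC3, fed normal chow on a regular light and dark cycle and given no particular treatment. With 1 library per time there is no replicate check, no test between times was possible, and every comparison below describes these 2 lists. The animals behind a library, and the allele and promoter behind the HDAC3 knockout whose name the lists carry as a filter, are not given in the labels. The series also holds RNA-seq of resting quadriceps at ZT10, 3 wild-type and 3 knockout libraries, used here only to check tissue and genotype.

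HDAC3 is a histone deacetylase that works inside corepressor complexes built on scaffold proteins such as NCoR1, whose deacetylase activating domain switches the enzyme on. It has no DNA-binding domain of its own and reaches chromatin through other proteins, among them nuclear receptors such as the REV-ERBs, which rise and fall over the day as part of the clock. In chromatin immunoprecipitation, a peak is a stretch where fragments pulled down with the antibody pile up, and its height depends on how many cells hold the protein there, how long it stays and how deeply the library was read.

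The labelled tissue and genotype were checked in the RNA libraries first. All 5 skeletal muscle markers (Acta1, Ckm, Myh4, Tnnt3 and Mylpf) were at 4949 FPKM or more in each of the 6 libraries, where FPKM stands for fragments per kilobase, scaled for depth. The 12 markers of endothelium, macrophages, adipocytes, fibroblasts and neutrophils ranged from 0 to 239.5 FPKM, the upper end being S100a8 in wild-type replicate 2. The other neutrophil marker, S100a9, was at 221.9 FPKM in that library. In every other library both genes were at 0.767 to 5.06 FPKM. The highest value of the remaining markers was Col1a1 at 65.3 FPKM in wild-type replicate 3. Hdac3 was at 33.3, 31.0 and 23.7 FPKM in wild type and at 5.51, 6.29 and 8.16 FPKM in the knockout, so the groups did not overlap. The scaffold gene Ncor1 was at 21.3 to 23.5 FPKM in wild-type muscle and at 22.9 to 26.7 FPKM in the knockout, and Gps2, a small subunit of the same complexes, at 17.7 to 23.2 and 19.9 to 26.0 FPKM. Of the related subunits Tbl1x and Tbl1xr1, the first was at 5.66 to 6.86 FPKM in wild type and 9.45 to 10.2 in the knockout, and the second at 10.16 to 11.04 and 16.05 to 20.99. Zbtb33, which encodes the DNA-binding protein Kaiso, was at 0.920 to 2.10 and 1.37 to 1.81 FPKM.

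All peaks span 150 bp, and the authors attached a score to each without naming its unit. Scores at ZT10 were whole multiples of 1.0995, and those at ZT22 whole multiples of 1.025, for 100% of peaks within a tolerance of 0.06 score units. The lowest score was 14.3 in both lists, which is 13 such steps at ZT10 and 14 at ZT22. Coordinates are those of the mouse build mm9, counted from 1. Genes and sequences of mm9 were not used here, so peaks are named by position and none is assigned to a gene.

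The isolated ZT10-only peaks were mostly low, with a thin tail of high ones. Their scores ran from 14.3 to 138.5 with a median of 17.6 and quartiles of 15.4 and 23.1. A score under 20 was found for 1715 of them (65.5%), 388 (14.8%) sat at the lowest score of the list, 257 (9.82%) reached 30 and 40 (1.53%) reached 50. The peaks listed at both times had a median ZT10 score of 26.4, with 28.2% under 20 and 37.3% at 30 or more. When only the 489 both-time peaks that also had no ZT10 neighbour within 10 kb were taken, their median was again 26.4. ZT10-only peaks in close groups lay between, at a median of 18.7 with 15.1% at 30 or more. A peak had to be missing from the ZT22 list to be a member, and the share missing varied with the score, so these values are a description of the chosen peaks and were not tested.

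**Figure D1:**
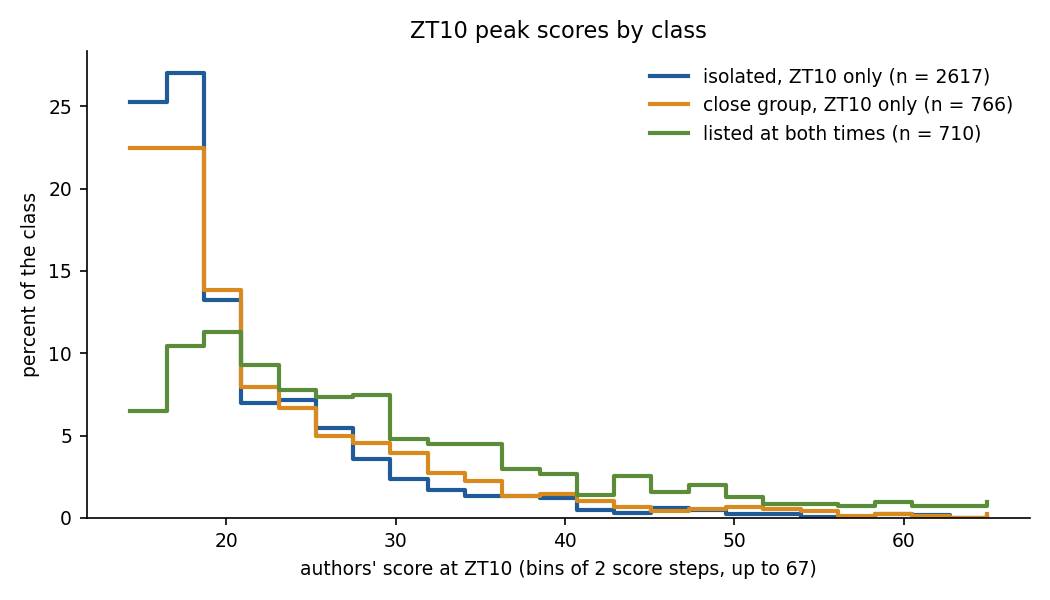
Authors' score at ZT10 (x axis, bins of 2 score steps) against the percent of each class of ZT10 peaks in the bin (y axis), for the 2617 isolated ZT10-only peaks, the 766 ZT10-only peaks in close groups and the 710 peaks listed at both times. Isolated peaks have the larger share in the bins under 20 and both-time peaks in those from 20.9 upward, with medians of 17.6 and 26.4.

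The score is coarse for most members. If 1 step stood for 1 read, which the files do not state, the median member would rest on 16 reads, with an exact 95% Poisson interval of 9.15 to 26.0 reads, and a member at the lowest score on 13 reads, with an interval of 6.92 to 22.2. Both lists have the same lowest score, so an interval around a member at that score had to hold the ZT22 minimum, and nothing was read from it. Members were listed only at or above that score, which the intervals do not take into account. The highest member, at 126 steps, would have an interval of 105 to 150. Such intervals cover counting error only and leave out differences between animals and libraries.

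The class and the score of a peak were then read together over the whole ZT10 list. Among ZT10 peaks under 16, 661 of 879 (75.2%, exact 95% binomial interval 72.2 to 78.0) were isolated ZT10-only peaks and 5.23% (3.86 to 6.92) were listed at both times. From 30 to under 40 the shares were 46.4% (41.1 to 51.7) and 33.1% (28.2 to 38.2), and at 60 or more they were 23.9% (15.4 to 34.1) and 68.2% (57.4 to 77.7). The share of close-group ZT10-only peaks lay between 18% and 20.6% in every bin under 60 and was 7.95% above. So the isolated ZT10-only share fell from bin to bin as the score rose, and the share of peaks listed at both times rose. These shares do not separate standing alone from missing at ZT22. Over all scores, 84.3% (82.9 to 85.5) of the 3106 ZT10 peaks with no ZT10 neighbour within 10 kb were missing at ZT22. Of the 987 with such a neighbour 77.6% (74.9 to 80.2) were missing, and of all ZT10 peaks 82.7%. Standing alone was common in both groups, at 77.4% of ZT10-only peaks and 68.9% of both-time peaks. Among ZT10-only peaks, isolated and close-group ones numbered 661 and 172 under 16. They numbered 69 and 35 from 40 to under 60, and 21 and 7 at 60 or more.

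**Figure D2:**
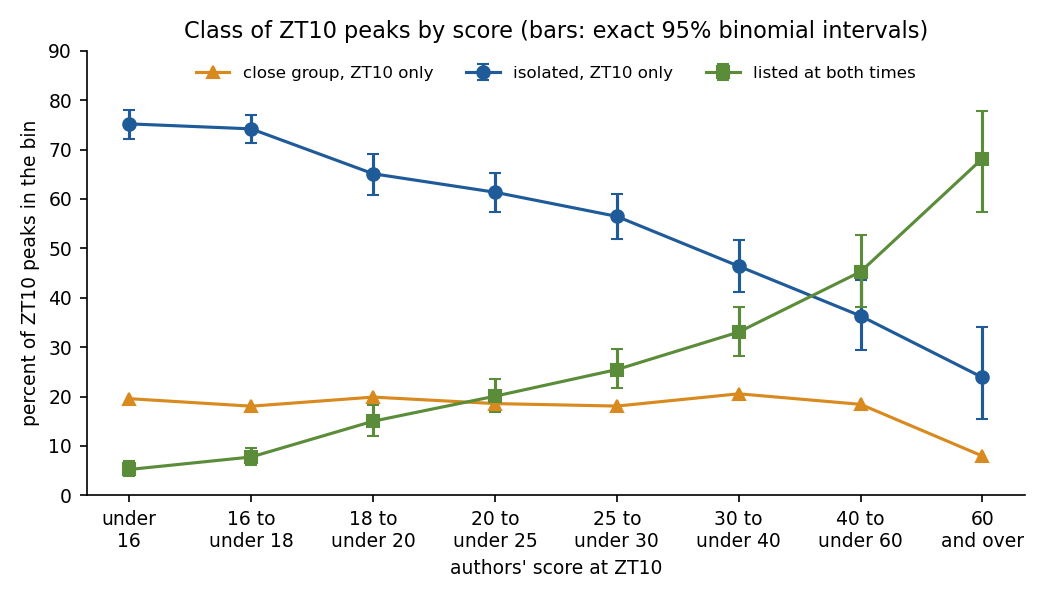
Percent of ZT10 peaks in each class (y axis) by the authors' score at ZT10 (x axis, 8 bins); error bars are exact 95% binomial intervals for isolated ZT10-only and both-time peaks. The isolated ZT10-only share goes down from 75.2% to 23.9% and the both-time share goes up from 5.23% to 68.2%.

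The scores of the 710 both-time peaks were compared between the lists. The ZT22 score divided by the ZT10 score of the same site had a median of 0.778 with quartiles of 0.608 and 0.933, and 571 sites (80.4%) scored lower at ZT22. Multiplied by 0.778, the scores of 1368 members (52.3%) would fall under 14.3, the lowest score the ZT22 list holds. The ratio was measured only at sites high enough to be in both lists, and with 1 library per time a difference in the scale of the scores and a difference in HDAC3 cannot be told apart in it. Whether those 1368 sites lost more HDAC3 towards ZT22 than the shared sites cannot be told from the lists.

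The names of the peaks hold a further limit on what absence means. Each name ends in a number that runs within a chromosome and follows the score (Spearman's rho between number and score of -0.986 to -0.968 over the 20 chromosomes at ZT10). At ZT10 the highest numbers add up to 17516, of which 4093 (23.4%) are in the list, and at ZT22 to 9241, of which 1459 (15.8%) are in it. Numbers 1 to 10 were present in 44.5% of cases at ZT10 and in 20.5% at ZT22, so skipped numbers include those at the top of the order. What the numbers count and why some are skipped is not stated. Whether skipped ZT22 numbers lie at sites of isolated ZT10-only peaks was not tested, as the lists give no position for them.

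Among the highest scores, isolated ZT10-only peaks were few. They made up 2 of the ZT10 peaks at rank 20 or better and 27 of those at rank 100 or better, against 63.9% of the list as a whole. The highest was the peak at chr7:108651980-108652129, with a score of 138.5, rank 2 of all 4093. Its nearest ZT10 peak lay 334 kb away with a score of 15.4, and the nearest ZT22 peak 160 kb away with a score of 17.4. Multiplied by the median ratio of the shared sites, 138.5 stays above the ZT22 minimum. So do the scores of all members other than the 1368 above. Why this peak is missing from the ZT22 list was not tested.

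Next in height came chr14:22504748-22504897 at a score of 106.6, with its nearest ZT10 peak at 43.7 kb and the nearest ZT22 peak at 942 kb. The peak at chr10:41613819-41613968 scored 91.3 and had a low ZT22 peak, score 17.4, at a distance of 7.95 kb. Both chr11:62372572-62372721 and chr12:88209035-88209184 scored 78.1, yet their surroundings differed. The first had no ZT22 peak within 1498 kb and no ZT10 peak within 89.7 kb, and the second had a ZT10 peak of score 25.3 at 10.8 kb and a ZT22 peak of score 28.7 at 24.2 kb.

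Chromosome 11 held 5 of the 20 highest members, and a pair of them were neighbours. The peak at chr11:98616265-98616414 scored 77.0 and that at chr11:98648419-98648568 scored 64.9, 32.2 kb apart, and a ZT22 peak of score 24.6 at chr11:98570367-98570516 was the nearest for both. The others on this chromosome were chr11:62372572-62372721, given above, chr11:43986742-43986891 at 70.4 and chr11:86734985-86735134 at 60.5. The last had a both-time peak of score 41.8 at ZT10 and 31.8 at ZT22 about 38.0 kb away.

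The remaining members of the highest 20 scored between 60.5 and 73.7. Next to chr3:21463290-21463439, at 73.7, lay a both-time peak of ZT10 score 56.1 at 14.6 kb, whose ZT22 score was 19.5. Beside chr8:122528365-122528514, at 69.3, a both-time peak stood at 58.3 kb with scores of 41.8 at ZT10 and 42.0 at ZT22. Of the 20, chr10:94784723-94784872, at 64.9, was the nearest to a ZT22 peak, 1.87 kb from one of score 17.4. Far from any ZT22 peak lay chr16:76325288-76325437, at 66.0 and 8675 kb, and chr14:41707894-41708043, at 61.6 and 6001 kb. Over these 20 peaks the distance to the nearest ZT22 centre had a median of 88.9 kb, 2 were within 10 kb of one and 11 within 100 kb.

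How alone the members stand beyond 10 kb varied over 3 orders of distance. The nearest other ZT10 centre lay at a median of 85.9 kb, with quartiles of 35.2 and 230 kb and a range from 10.1 kb to 12953 kb. Within 20 kb 86.9% of members had no other ZT10 peak, within 50 kb 64.7%, within 100 kb 46.2%, within 500 kb 12.3% and within 1000 kb 5.04%. Counting both lists, 1080 members (41.3%) had no other peak of either time within 100 kb on each side, and 104 (3.97%) had none within 1000 kb. The 489 isolated both-time peaks had their nearest ZT10 neighbour at a median of 77.9 kb, and 42.9% of them had none within 100 kb.

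ZT10-only peaks became fewer with distance to their neighbour, unevenly from bin to bin, and the 10 kb limit did not fall in a gap. ZT10-only peaks whose nearest ZT10 centre was up to 1 kb away numbered 206, and those from 1 to 2 kb 116. The bins on either side of the limit held 38 (9 to 10 kb) and 53 (10 to 11 kb), and those from 19 to 20 kb held 29. Just beyond the limit were chr8:11183595-11183744 (score 47.3, neighbour at 10.071 kb), the pair chr4:149395051-149395200 and chr4:149405139-149405288 (35.2 and 14.3, 10.088 kb apart) and the pair chr2:152730150-152730299 and chr2:152740249-152740398 (18.7 and 27.5, 10.099 kb apart). Just short of it, and so not members, were chr5:65194128-65194277 (22, 9.991 kb), chr12:15990875-15991024 and chr12:16000851-16001000 (30.8 and 15.4, 9.976 kb apart), chr14:56194309-56194458 (19.8, 9.972 kb) and chr4:47694218-47694367 (18.7, 9.921 kb). These scores ran from 14.3 to 47.3 beyond the limit and from 15.4 to 30.8 short of it.

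**Figure D3:**
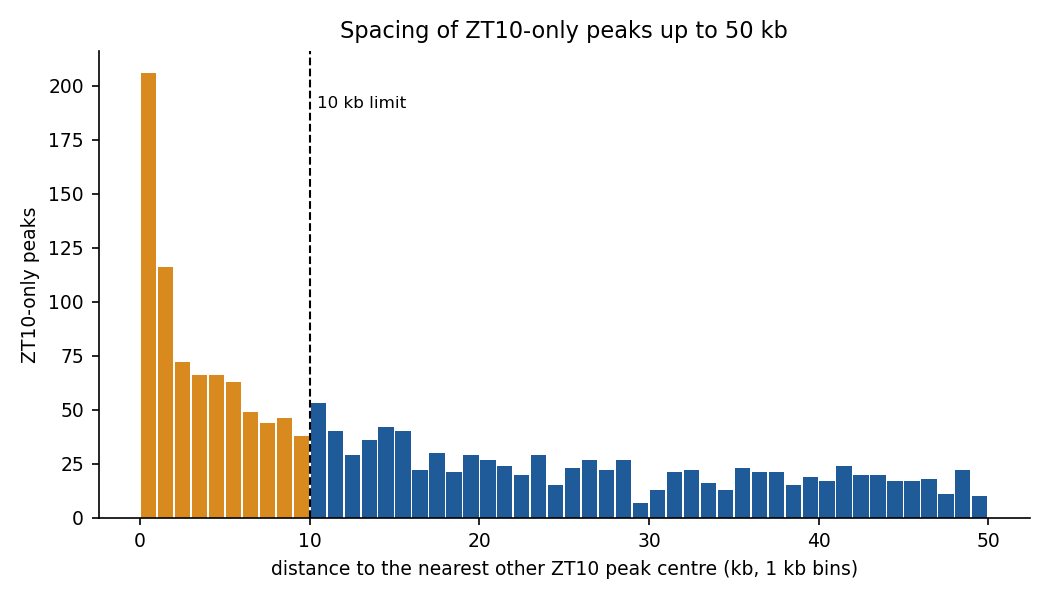
Number of ZT10-only peaks (y axis) by the distance to the nearest other ZT10 peak centre (x axis, kb, bins of 1 kb up to 50 kb). Bars left of the dashed line at 10 kb are close-group peaks and bars right of it are members; the bins beside the line hold 38 and 53 peaks, with no gap between them.

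The nearest ZT10 peak of a member was another isolated ZT10-only peak in 1931 cases (73.8%), a both-time peak in 422 (16.1%) and a close-group peak in 264 (10.1%). These classes make up 63.9%, 17.3% and 18.7% of the ZT10 list, which are not expected values here: the rule bars neighbours within 10 kb, and of a close group only an outer peak can be the nearest to a member. In 1485 cases the member was in turn the nearest ZT10 peak of that neighbour. Scores of members and of their nearest ZT10 peak had a Spearman's rho of 0.03 across the 2617 members, which share 1 library. For score and distance rho was -0.08 to the nearest ZT10 peak and -0.05 to the nearest ZT22 peak.

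The weak relation of score and distance over all members was read again at the ends of the score range. Members at 30 or more had their nearest ZT10 peak at a median of 58.2 kb and those under 20 at 96.2 kb. No other ZT10 peak lay within 1000 kb for 4 of the 257 high members (1.56%, exact 95% binomial interval 0.426 to 3.94) and for 98 of the 1715 low ones (5.71%, 4.66 to 6.92). The 5 most remote members all scored under 20, as did 65.5% of all members. The peak at chrX:35667027-35667176, at the minimum of 14.3, was 12953 kb from the nearest ZT10 peak, chr14:87815945-87816094 (16.5) was 7935 kb away, chr5:45098401-45098550 (15.4) 6135 kb, chr9:7763748-7763897 (18.7) 6093 kb and chr3:14799725-14799874 (14.3) 5233 kb.

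Distances to the ZT22 list set the members against the close-group peaks. The nearest ZT22 centre lay at a median of 289 kb from a member, with quartiles of 78.2 and 870 kb, and at a median of 53.6 kb from a close-group ZT10-only peak. A ZT22 centre was found within 10 kb of 138 members (5.27%, exact 95% binomial interval 4.45 to 6.20) and of 260 close-group peaks (33.9%, 30.6 to 37.4). Within 100 kb the shares were 28.8% (27.1 to 30.6) and 58.0% (54.4 to 61.5), and within 1000 kb 77.8% (76.2 to 79.4) and 91.0% (88.7 to 92.9). Part of this gap follows from the rule, since a both-time peak within 10 kb would itself have removed a peak from the members. Peaks of the same close group can share a ZT22 neighbour, and the intervals treat them as independent.

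**Figure D4:**
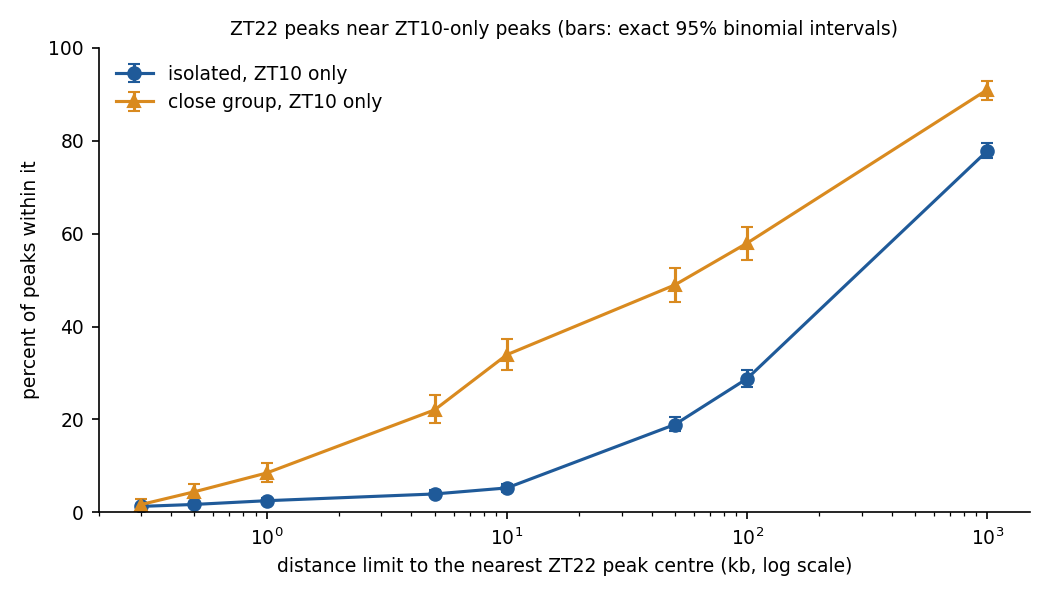
Percent of peaks (y axis) with a ZT22 peak centre within a distance limit (x axis, kb, log scale) for the 2617 isolated ZT10-only peaks and the 766 close-group ZT10-only peaks; error bars are exact 95% binomial intervals. The members' curve runs below that of the close groups, at 5.27% against 33.9% for 10 kb. Part of this gap follows from the rule, which leaves members no both-time ZT10 peak within 10 kb. The intervals treat peaks as independent, which peaks of the same close group are not.

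A small set of members was absent from the ZT22 list only by a narrow margin. For 45 members (1.72%) a ZT22 centre lay within 500 bp without touching, with 5 to 348 bp between the peak edges. The median member score in this set was 22 and the median ZT22 score 16.4, and the ZT22 score was the lower of the pair in 34 of 45. It was also the lower at 571 of the 710 both-time sites (80.4%), and all ZT22-only peaks had a median score of 17.4. The rule leaves no other outcome than that all 45 ZT22 peaks were without an overlap at ZT10, since an overlapping ZT10 peak would have stood within 10 kb of the member. In the closest cases the edges were 5 bp apart, at chr18:80569721-80569870 (26.4) beside chr18:80569876-80570025 (22.5 at ZT22), and at chr2:33012064-33012213 (16.5) beside chr2:33011909-33012058 (17.4 at ZT22). The next 3, chr1:185857986-185858135 (25.3), chr12:117286092-117286241 (20.9) and chr17:5324512-5324661 (36.3), had ZT22 peaks of 17.4, 22.5 and 30.7 beginning 8, 13 and 14 bp beyond their edges. The last of these is the highest of the 5 at both times. Among the 257 members of 30 or more, 9 (3.50%, 1.61 to 6.54) had such a ZT22 neighbour within 500 bp. From 20 to under 30 it was 18 of 645 (2.79%, 1.66 to 4.37), and under 20 it was 18 of 1715 (1.05%, 0.623 to 1.65). The intervals of the highest and lowest groups overlap narrowly.

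Members were found on all 19 autosomes and the X chromosome, in numbers from 31 on X to 205 on chromosome 11. Measured over the stretch between the first and the last listed peak, their density was 1.04 per Mb in all. The density was highest on chromosome 11, at 1.73 per Mb (exact 95% Poisson interval 1.502 to 1.98), followed by chromosome 19 at 1.49 (1.19 to 1.85) and chromosome 15 at 1.34 (1.12 to 1.58). The lowest autosomal values were 0.818 (0.677 to 0.979) on chromosome 6, 0.828 on chromosome 16 and 0.832 on chromosome 14. On X the density was 0.201 per Mb (0.137 to 0.286), against 1.0995 over the autosomes. The mice were male, so X is present in a single copy and the autosomes in pairs. Densities were not adjusted for copy number, and its part in the low value on X was not tested. Chromosomes 11 and 19 also had the highest densities of all ZT10 peaks, at 2.56 and 2.50 per Mb, and X the lowest at 0.247.

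As a share of the ZT10 peaks of a chromosome, members ran from 56.3% on chromosome 9 (exact 95% binomial interval 49.6 to 62.8) to 69.6% on chromosome 2 (63.8 to 74.9) among the autosomes. On X they were 31 of 38 (81.6%, 65.7 to 92.3), with 5 both-time and 2 close-group peaks there. The median member score was 17.6 on 17 chromosomes and 18.7, 18.2 and 18.7 on chromosomes 1, 6 and 12. The share of members thus varied less between chromosomes than their density did, and the median score moved by no more than 1 step.

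**Figure D5:**
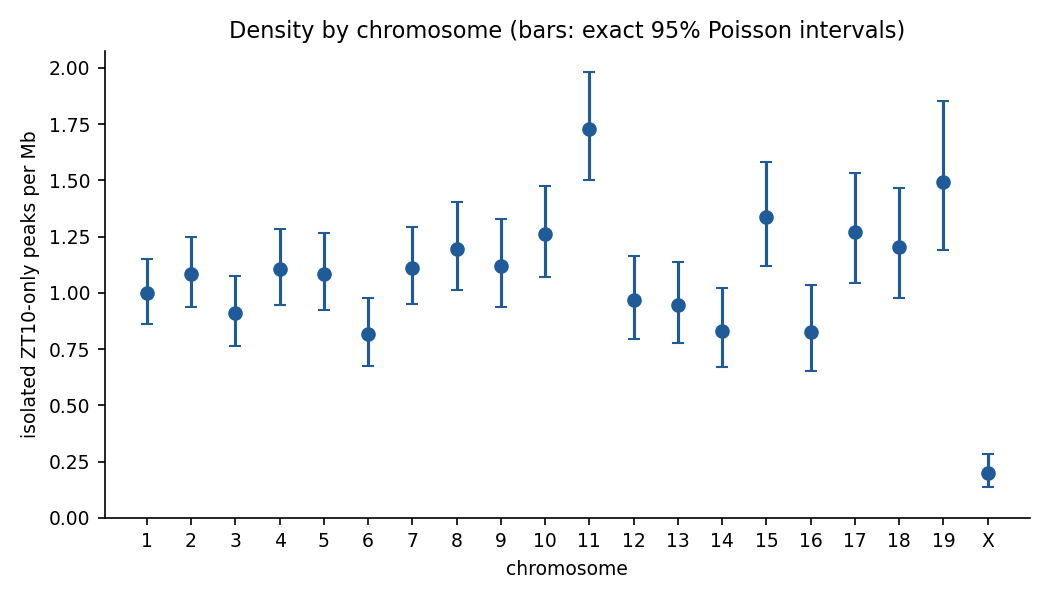
Isolated ZT10-only peaks per Mb (y axis) on each chromosome (x axis), over the stretch between its first and last listed peak; error bars are exact 95% Poisson intervals of the count. Chromosome 11 is highest at 1.73 per Mb and X lowest at 0.201. The intervals do not allow for the uneven spread of members along chromosomes. The mice were male, and densities were not adjusted for the single X.

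The X chromosome held the members farthest from any ZT22 peak. Its ZT22 list has 6 peaks, and the median member on X was 7935 kb from the nearest of them. Neither value was adjusted for the single X of male mice. Of the 5 farthest, 4 lay together, at chrX:49470009-49470158 (36.3), chrX:49590760-49590909 (46.2), chrX:49601687-49601836 (16.5) and chrX:49641335-49641484 (14.3), between 26756 and 26927 kb from the nearest ZT22 peak. The peak of 46.2 is the highest member on X, and its neighbour of 16.5 lay 10.9 kb away, just beyond the limit of isolation. The fifth, chrX:65749004-65749153 (16.5), was 30499 kb from a ZT22 peak and 5151 kb from the nearest ZT10 peak.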

How the data were processed

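HDAC3 ChIP-seq peak lists of 2 wild-type libraries, 1 at ZT10 and 1 at ZT22, were taken as the authors deposited them. Per the submitters' processing notes they were made with Bowtie and HOMER on mm9; versions, thresholds and the control library are not stated there. By their names the lists were limited to 1 RPM and filtered by the knockout, which their contents do not allow to be checked. The series holds 1 knockout HDAC3 ChIP library, at ZT10, and none at ZT22. Which library served as the filter for each list is not stated. The deposited peak score has no stated scale. Expression, which the authors deposited as FPKM (TopHat2, Cuffdiff and mm9 are named in the submitters' processing notes), was used only for levels of single genes. Of the 14 samples 8 were used, and the other 6 were not analysed here. Read numbers are not in the lists.

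Members were found by the 1 bp overlap and 10 kb rule in Python 3.11.15 with pandas 2.3.3 and NumPy 2.4.6. The overlap count was checked against bedtools 2.31.1, and the rule was tested on simulated data with known members. Distances run between peak centres. Exact binomial (Clopper-Pearson) and Poisson intervals at 95% came from SciPy 1.17.1 and cover counting error only. They treat peaks as independent, which neighbouring peaks need not be. No test was run: the rule used both lists, each of 1 library. A comparison of genes near the peaks had been planned on condition that mm9 gene positions were at hand; it was not run. Named peaks are the 20 members of highest score, the 5 on each side of the 10 kb limit, the 5 nearest to and farthest from ZT22 peaks and the 5 farthest from ZT10 peaks. The members and lists were chosen with earlier results of these data known.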

Additional observations from a re-analysis of the deposited data

How the results depend on the processing

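The number of isolated ZT10-only peaks was 2617 and was recounted under 8 alternatives. In 6 of them it stayed within 1.5 times of that, between 2275 (isolation over 20 kb) and 2857 (isolation over 5 kb). It came to 1694 with isolation over 50 kb, which by construction keeps fewer peaks, and to 1189 when only ZT10 peaks above the median score of 18.7 were taken, as members and as neighbours; 1053 of the 1189 are among the 2617. Asking for 75 bp of overlap gave 2692, treating a ZT22 centre within 500 bp or 5 kb as shared gave 2572 and 2513, and counting ZT22 peaks as neighbours gave 2479. The median score stayed at 17.6 except for 25.3 above the median score, and the median distance to the nearest ZT22 peak ran from 244 to 413 kb. Other gene distances, q thresholds, pseudocounts and left-out libraries for genes linked to the peaks were not run, as no gene was linked. No paired analysis was possible because no test between groups was made: the replicate numbers belong to RNA libraries, whose genes were not linked to the peaks. Read depth is not given in the lists, so what it limits was not measured.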

Other observations

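Members were unevenly spread along chromosomes. In 1 Mb bins, 1410 of 2616 held none, 498 held 1, 333 held 2, 191 held 3 and 184 held at least 4, with a mean of 1.0004 and a variance of 2.07. Bins ran from the first base of each chromosome to its last listed peak, with X pooled in. Empty bins before the first listed peak thus enter these counts, the variance and the rho values below. Bins without a member held 0.0851 both-time peaks on average, and bins with at least 4 held 0.870. Across bins, Spearman's rho with the number of members was 0.37 for both-time peaks, 0.33 for close-group peaks and 0.42 for ZT22-only peaks, as a description of bins that share the same libraries and mappability. Of the bins, 1821 held no ZT22 peak at all, and these contained 1048 members (40.05%).

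The densest bin was chr10:80000001-81000000, with 12 members, 8 close-group ZT10-only peaks, 1 both-time peak and 5 ZT22-only peaks. It was followed by chr11:117000001-118000000 with 11 members and chr5:125000001-126000000 with 9. Stretches in which at least 6 consecutive ZT10 peaks were all members, each at most 100 kb from the next, numbered 4. They were chr10:80237432-80403643 with 7 members over 166 kb and scores of 14.3 to 46.2, chr2:152446724-152740398 with 7 over 294 kb, chr5:125553802-125863218 with 7 over 309 kb, and chr8:27824431-28166337 with 6 over 342 kb. The stretch on chromosome 5 had no ZT22 peak inside it and the other 3 had 1 each. These bins and stretches were chosen after their counts were seen.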
